A study of Mus musculus with 7 samples.

Results

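Long stretches of the mouse autosomes without a CTCF peak in female liver were examined for their genes, for the cohesin peaks inside them and for the CTCF peaks at their ends. A stretch is an autosomal interval of at least 300 kb between the end of 1 CTCF peak and the start of the next, with at most 10% unsequenced bases (N) in the mm9 reference genome. Of 66991 autosomal intervals between consecutive CTCF peaks, 1099 were at least 300 kb long, and 1082 of them remained after the 17 with more N were left out. The stretches were selected on the positions of CTCF peaks, so the absence of CTCF peaks inside them, their lengths and the CTCF values at their ends describe the selection and were given no test. The members just inside the limit, on chromosomes 3, 2 and 6, measured 300181, 300653 and 301151 bp, and those just outside it, on chromosomes 5, 7 and 13, measured 299808, 299639 and 299589 bp.

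CTCF and cohesin had been mapped by ChIP-seq in liver nuclei of female Crl:CD1(ICR) mice, an outbred stock, at 8 weeks of age, with 4 libraries for CTCF and 3 for Rad21, a subunit of the cohesin ring. No treatment or genetic change distinguished the libraries, and both antibodies were used on the same tissue, sex and strain. The authors pooled the libraries of each antibody before they called peaks, so every value below is a single value per peak, with no SD and no replicates, and the spread between mice is unknown. The autosomes carried 67010 CTCF and 67228 Rad21 peaks. The lists hold no read counts, so the depth behind a single region is unknown, and sequence where no peak is listed may still be bound below the threshold of the peak caller. Whole liver nuclei were used, so binding in a minor cell type and weak binding in hepatocytes cannot be told apart.

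CTCF is a zinc finger protein that binds a long, oriented DNA motif. In the loop extrusion model, cohesin reels in chromatin until it meets CTCF, and loops tend to form between motifs that point towards each other (convergent). A CTCF peak that shares sequence with a Rad21 peak is called a CAC (cohesin-and-CTCF) site, a CTCF peak that does not is Lone CTCF, and Rad21 peaks without a CTCF peak are CNC (cohesin-non-CTCF) sites, which in liver are known at enhancers and at promoters of expressed genes. Gene deserts, arrays of sensory receptor genes and very long genes of the nervous system are typical of the large silent domains of a liver cell.

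The sequences at the ends of the stretches and the motifs without a listed peak inside them are shown first, because the orientation of the border motifs and the repetition of some sites recur in the results. Each line gives the mm9 position and strand of a 20-base match to a CTCF motif learned from these peaks, whose consensus was nnGCCACnAGGGGGCGCnnn (n, no majority base). The match stands in capitals between 10 flanking bases on each side, 5′ to 3′ in the direction of the motif. The first pair converges on the 3230 kb stretch of Cntnap5a, the second pair converges on an olfactory receptor array on chromosome 2, the third pair stands in tandem around a 375 kb stretch within the gene Gpc5, and the fourth pair bounds the longest stretch without any protein-coding gene.
Cntnap5a, left border, chr1:115144101-115144120, plus: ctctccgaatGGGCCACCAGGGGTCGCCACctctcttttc
Cntnap5a, right border, chr1:118374471-118374490, minus: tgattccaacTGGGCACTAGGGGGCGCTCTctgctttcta
Olfr array, left border, chr2:85566104-85566123, plus: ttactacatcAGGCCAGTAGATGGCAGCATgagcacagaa
Olfr array, right border, chr2:87301000-87301019, minus: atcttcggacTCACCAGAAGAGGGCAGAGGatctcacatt
Gpc5, left border, chr14:116230752-116230771, plus: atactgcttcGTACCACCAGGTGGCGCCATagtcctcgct
Gpc5, right border, chr14:116606369-116606388, plus: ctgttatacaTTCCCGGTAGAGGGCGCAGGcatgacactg
No coding gene, left border, chr14:81245548-81245567, plus: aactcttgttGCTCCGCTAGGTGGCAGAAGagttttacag
No coding gene, right border, chr14:84838369-84838388, plus: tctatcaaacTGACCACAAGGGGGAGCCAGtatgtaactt

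Of the named stretches, 14 had a motif at both borders, and at 1 of them, the 3615 kb stretch on chromosome 12, all 40 bases shown were the same at the left and the right border. The remaining lines show that pair, the sequence found most often among the matches inside the same stretch, a match beside the receptor gene Vmn1r181, and the matches under a pair of Rad21 peaks in 1 stretch of chromosome 10.
Chromosome 12, left border, chr12:21531618-21531637, plus: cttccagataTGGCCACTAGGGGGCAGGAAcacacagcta
Chromosome 12, right border, chr12:25147164-25147183, plus: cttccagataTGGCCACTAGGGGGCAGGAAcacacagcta
Chromosome 12, most frequent match without a listed peak: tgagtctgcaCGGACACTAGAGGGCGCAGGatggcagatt
Near Vmn1r181, no listed peak, chr7:24753212-24753231, plus: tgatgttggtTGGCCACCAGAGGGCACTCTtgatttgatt
Rad21 peak near Raet1d, chr10:22199841-22199860, minus: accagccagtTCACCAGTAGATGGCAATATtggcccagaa
Rad21 peak near Slc2a12, chr10:22299415-22299434, plus: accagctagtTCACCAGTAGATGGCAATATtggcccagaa

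The 1082 stretches covered 757 Mb, or 30.6% of the autosomal length, although they made up a small minority of the intervals between CTCF peaks. Their median length was 499.7 kb (interquartile range 371 to 783 kb), against a median of 11.5 kb over all autosomal intervals. The longest measured 4355 kb, 174 were at least 1 Mb long, 45 at least 2 Mb and 16 at least 3 Mb. Every autosome held some. Their share of the sequenced bases was lowest on chromosomes 11 (18.2%) and 19 (19.1%) and highest on chromosomes 12 (39.5%) and 3 (39.3%). A single CTCF peak stood between neighbouring stretches at 237 places, so that stretches often followed each other. The longest such run spanned 4898 kb on chromosome 1 (chr1:114353023-119251271), where 3 stretches in a row held 1 protein-coding gene start, that of Cntnap5a, and 1 Rad21 peak. Runs of 3 stretches also lay at chr1:25883898-30641675, which includes the start of the adhesion receptor gene Bai3, and at chr2:96426172-100999396, and neither held a Rad21 peak.

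GC content and sequence uniqueness differed with interval length, and both stand beside the results that follow. For comparison, 3090 autosomal intervals of 100 to 300 kb (501 Mb) and 11442 of 30 to 100 kb (597 Mb) were measured in the same way. The median GC content of the stretches was 38.7% (interquartile range 37.6 to 40.2%), against 41.2% in intervals of 100 to 300 kb and 43.2% in those of 30 to 100 kb. Uniqueness was measured as the share of 32-base words, read every 500 bp, that occur once in the genome on either strand. It was 76.8% in the stretches, 85.2% and 88.8% in the shorter classes and 84.5% over all autosomes. Because only uniquely mapped reads were kept, repeated sequence could give few or no peaks. In 61 stretches (59.3 Mb) fewer than 50% of the words were unique, in 353 (259 Mb) 50 to 80%, and in 668 (439 Mb) at least 80%. In most stretches, therefore, most words occurred once.

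**Figure D1:**
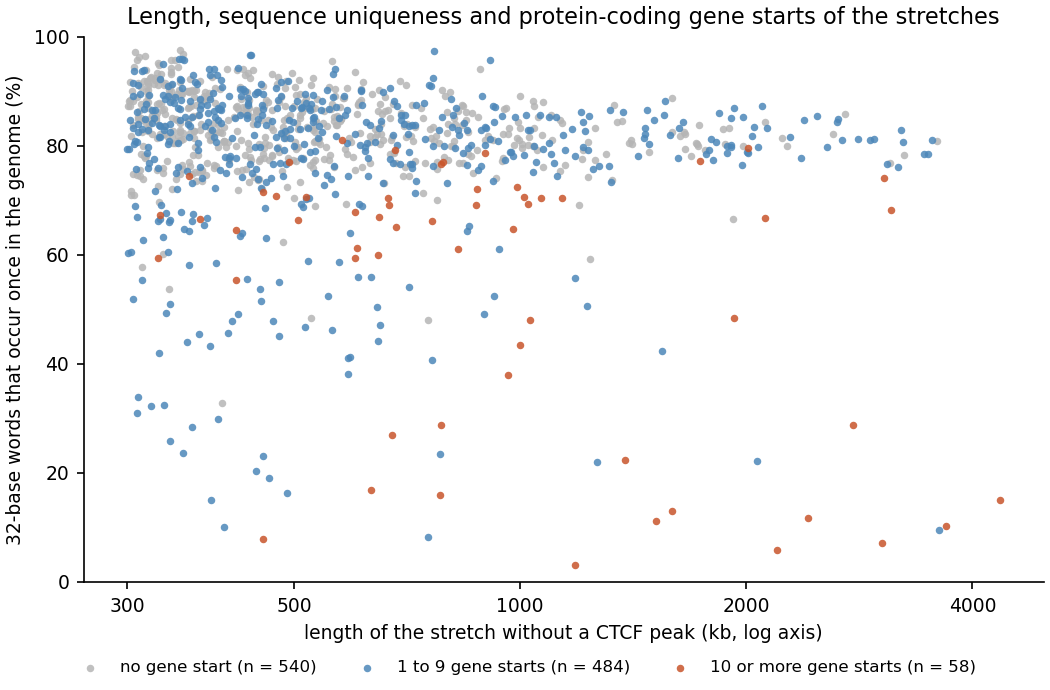
Each point is 1 of the 1082 stretches, placed by its length (kb, log axis) and by the share of its 32-base words that occur once in the genome (%), and coloured by the number of protein-coding gene starts inside it. The 540 stretches without a gene start lie mostly near the top of the plot, whereas the 58 with 10 or more gene starts extend down to low uniqueness.

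The density of protein-coding genes in the stretches varied widely with length and uniqueness, and 58 stretches held 62% of the genes that started in one. In all, 2464 of the 21418 autosomal protein-coding genes had their transcription start site (TSS, the annotated gene start) inside a stretch, which is 11.5% of the genes on 30.6% of the autosomal length. The density was 3.25 TSS per Mb (95% Poisson interval 3.13 to 3.39), compared with 3.89 per Mb in intervals of 100 to 300 kb and 5.73 per Mb in those of 30 to 100 kb. In stretches with at least 80% unique words the density was 0.873 per Mb, against 2.72 in intervals of 100 to 300 kb of that uniqueness. Stretches with 50 to 80% unique words held 5.32 per Mb, and those with fewer than 50% held 11.9. Stretches of at least 2 Mb held 4.31 per Mb (3.95 to 4.70), above the intervals of 100 to 300 kb but below those of 30 to 100 kb. In these longest stretches 67.5% of the words were unique. These and all later intervals cover counting error only, since neighbouring genes and peaks are not independent. Gene bodies covered 18.7% of the stretches, 37.6% of the intervals of 100 to 300 kb and 50.4% of those of 30 to 100 kb. No protein-coding gene started in 540 stretches (49.9%), a lower share than in intervals of 100 to 300 kb (66.4%) and 30 to 100 kb (76.8%). A longer interval has more room for a gene start, and among the stretches this share fell from 54.2% at 300 to 500 kb to 17.8% from 2 Mb. No protein-coding gene overlapped 341 stretches (31.5%), next to 33.5% and 28.9% in those classes. The longest of these 341 measured 3592 kb and lay at chr14:81245778-84837911 between Olfm4, a secreted olfactomedin family gene, and Pcdh17, a protocadherin gene. It contained 3 other annotated gene starts, no Rad21 peak and 2 strong CTCF motif matches.

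At the other extreme, 58 stretches with at least 10 TSS each contained 1528 genes, or 62% of all genes that started in a stretch. The largest numbers were 108, 85, 84, 53 and 52 TSS. The stretch with 108 was also the longest of all, at chr7:20542225-24897191. Of its genes, 64 were vomeronasal receptors, 37 were predicted genes with Gm names, and only 15% of its words were unique. The stretches with 85 and 84 TSS, at chr2:88196819-90314773 and chr2:85566345-87300886, each held 84 olfactory receptor genes, and in them 66.7% and 77.1% of the words were unique. The stretch with 53 TSS, at chr14:41976415-44390974, held 47 Gm-named genes and 11.8% unique words, while that with 52, at chr10:128463555-129529896, held 51 olfactory receptors. The genes that overlapped a stretch were short, with a median length of 3.77 kb against 15.5 kb for all genes, although the 156 genes that overlapped stretches by 300 kb or more were among the longest.

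**Figure D2:**
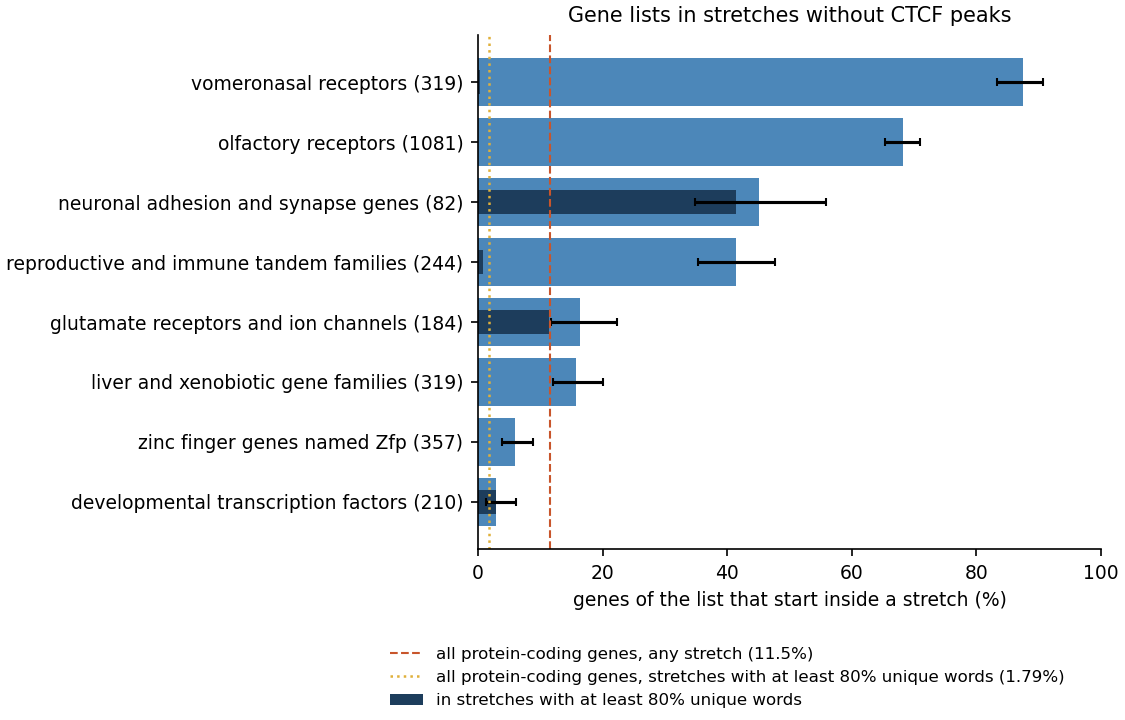
Light bars give the percentage of the genes of each list (number of genes in brackets) that start inside a stretch, with 95% Wilson intervals, and dark bars give the part that starts in stretches with at least 80% unique words. Lines mark the share of all autosomal protein-coding genes for the light bars (dashed, 11.5%) and for the dark bars (dotted, 1.79%). The dark bars exceed the dotted line for neuronal adhesion and synapse genes (41.5%), glutamate receptors and ion channels (11.4%) and developmental transcription factors (2.86%).

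Chemosensory receptor genes made up the largest group. Of 1081 olfactory receptor genes, which encode the odorant receptors of the nose, 737 started in a stretch (68.2%, 95% Wilson interval 65.3 to 70.9%), in 34 stretches. Of 319 vomeronasal receptor genes, which encode pheromone receptors, 279 did (87.5%, 83.4 to 90.7%), in 29 stretches. Both shares stand against 11.5% of all protein-coding genes. None of the olfactory genes and 1 of the vomeronasal genes lay in a stretch with at least 80% unique words, where 383 of all 21418 genes (1.79%) started, and the median uniqueness around them was 70.4% and 55.4%. None of these receptor genes inside stretches had a Rad21 summit within 1 kb of its TSS (Wilson intervals 0 to 0.519% and 0 to 1.36%). Over the whole lists such summits were nearly as rare, at 3 of 1081 olfactory genes (0.278%) and 1 of 319 vomeronasal genes (0.313%), and 1.46% of all genes that started in a stretch had one. The stretch of 3692 kb at chr7:7248553-10940078, the longest without a Rad21 peak, held 24 vomeronasal receptor genes, from Vmn2r30 onwards, in sequence with 10.3% unique words.

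Genes of neuronal adhesion and synapses showed the opposite sequence context. Of the 82 genes on this list, 37 started in a stretch (45.1%, 34.8 to 55.9%), in 36 different stretches, and 34 of the 37 lay in stretches with at least 80% unique words (41.5% of the list, 31.4 to 52.3%, against 1.79% of all genes). They included the cadherin genes Cdh7 and Cdh19, which shared a stretch of 3533 kb, Cntnap5a, a neurexin relative, in a stretch of 3230 kb, and Slitrk1, a synaptic membrane protein gene, in a stretch of 2653 kb. A Rad21 summit lay within 1 kb of the TSS of 2 of the 37 (5.41%, 1.5 to 17.7%), next to 1.46% of all genes that started in a stretch. At neither of the 2 genes did the Rad21 peak lie inside the stretch. Over the whole list 15 of the 82 genes (18.3%) had such a summit, as did 49.1% of all protein-coding genes. Shares of whole lists and of all genes, here and below, include genes with a CAC site at the start. Inside a stretch only CNC sites or peaks at the borders can count. Among glutamate receptors and ion channels, 30 of 184 started in a stretch (16.3%, 11.7 to 22.3%), an interval whose lower end lay just above the 11.5% of all genes. In stretches with at least 80% unique words 21 of the 184 started (11.4%, 7.59 to 16.8%, against 1.79%). Examples were the GABA receptor subunit genes Gabrg1 and Gabra2 together in 1 stretch of 1888 kb and the metabotropic glutamate receptor gene Grm7 in another of 1907 kb. None of the 30 had a Rad21 summit within 1 kb (Wilson interval 0 to 11.4%), which includes the 1.46% of all genes that started in a stretch, whereas 33 of the 184 genes of the list had one (17.9%).

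The longest overlaps between a gene and a stretch also involved the nervous system. Cntnap2, a neurexin relative of 2241 kb on chromosome 6, overlapped a stretch over 1806 kb. Lrp1b, a relative of the LDL receptor, overlapped over 1466 kb, and Fam190a over 1067 kb. Nrg3, a neuregulin gene of 1104 kb at chr14:39182138-40286376, lay wholly inside a single stretch. No Rad21 peak was listed in the stretches that contained the longest overlaps of Cntnap2, Nrg3 and Fam190a, and 1 was listed in that of Lrp1b. Of all stretches, 74.4% held none.

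Of 319 genes of liver and xenobiotic families (cytochromes P450, sulfotransferases, major urinary proteins, serpins and others), 50 started in a stretch (15.7%, 12.1 to 20.1%), in 10 stretches, an interval that begins just above the 11.5% of all genes. All 17 genes in the 1515 kb stretch at chr4:59957526-61472182 were major urinary protein genes, which encode pheromone carriers secreted by liver, and only 11.1% of its words were unique. Further members were 7 Cyp4 genes in a stretch of 555 kb, 6 Cyp2c genes in another of 645 kb, 5 Cyp3a genes in another of 651 kb and 5 Sult2a genes in another of 712 kb. A stretch of 478 kb held 6 serpin genes, namely Serpinb1b and Serpinb9c to Serpinb9g. The rest were Slco6c1, Slco6d1, Fmo9 and Cyp2b23. The list is one of gene families, and expression of its members in liver was not measured here. None of the 50 lay in a stretch with at least 80% unique words. Of the 50, 1 had a Rad21 summit within 1 kb of its TSS (2%), namely Cyp3a11. This was near the 1.46% of all genes that started in a stretch, whereas 122 of the 319 genes of the list had one (38.2%).

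A list of tandem families, mainly reproductive and immune, had 101 of 244 genes in stretches (41.4%, 35.4 to 47.7%), against 11.5% of all genes. In stretches with at least 80% unique words, however, 2 of the 244 started (0.820%, 0.225 to 2.94%), next to 1.79% of all genes. The list also contained sensory receptor genes, and 34 of the 101 were such genes, 19 of the Tas2r family (bitter taste receptors) and 15 of the Mrgpr family (receptors of sensory neurons). Without these families 67 of 189 genes started in a stretch (35.4%, 29.0 to 42.5%). Of the 101, 20 were prolactin family genes in a single stretch of 2012 kb at chr13:26025051-28036963, 18 were Tas2r bitter taste receptors at chr6:132599819-133055147, and 13 were natural killer receptor genes of the Klr families at chr6:129531698-130201562. None of these 3 stretches held a Rad21 peak, which was also the case for 74.4% of all stretches. Of developmental transcription factors, 6 of 210 started in a stretch (2.86%, 1.32 to 6.09%), for example Zic1, Zic4, Isl1 and Zfpm2, which is below the 11.5% of all genes. All 6 lay in stretches with at least 80% unique words, and by that measure the list was not below the share of all genes (1.79%), which falls within its interval. Zinc finger genes with Zfp names were below the 11.5% of all genes (21 of 357, 5.88%, 3.88 to 8.82%), and none lay in stretches with at least 80% unique words. Among other annotated genes, 31.9% of 4055 pseudogenes, 25.1% of 1468 miRNA genes and 4.95% of 1232 lincRNA genes started in a stretch.

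Rad21 peaks were sparse inside the stretches. All of them are CNC sites by construction, so the comparison was made with Rad21 peaks inside shorter intervals between CTCF peaks. The stretches contained 494 Rad21 peaks, or 0.653 per Mb (95% Poisson interval 0.596 to 0.713), compared with 3.44 per Mb (3.28 to 3.61) in intervals of 100 to 300 kb and 10.03 per Mb (9.77 to 10.3) in those of 30 to 100 kb. With intervals ended only at CTCF peaks of −log10 q at least 10, the values were 1.44 per Mb in stretches and 8.02 in intervals of 100 to 300 kb. With only Rad21 peaks of −log10 q at least 10 they were 0.182 and 1.01. Within the stretches the density fell with length, from 1.40 per Mb between 300 and 500 kb to 0.580 between 500 and 1000 kb, 0.237 between 1 and 2 Mb and 0.139 above that length. At least 1 Rad21 peak was present in 277 stretches (25.6%, 95% Wilson interval 23.1 to 28.3%). The corresponding shares were 29.1% of the intervals of 100 to 300 kb and 30.7% of those of 30 to 100 kb, although a longer interval has more room for a peak. The share of stretches with a Rad21 peak depended on the peaks admitted. It was 41.5% with intervals ended only at CTCF peaks of −log10 q at least 10, 9.61% with only Rad21 peaks of −log10 q at least 10 and 7.12% with only those of fold enrichment at least 5, and in each case it was below that of intervals of 100 to 300 kb (44.9%, 11.9% and 8.35%). With all listed peaks, the other 805 stretches, which summed to 573 Mb, held none. Of those with a peak, 167 held 1, 95 held 2 to 4 and 15 held 5 or more.

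Base composition and uniqueness moved with this density. In the 361 stretches with the lowest GC content the density was 0.307 Rad21 peaks per Mb, in the 360 with intermediate values 0.736 and in the 361 with the highest 1.19. In stretches with at least 80% unique words it was 0.798 per Mb (0.716 to 0.886), whereas it was 0.452 in those with 50 to 80% and 0.456 in those with less. Intervals of 100 to 300 kb with at least 80% unique words held 3.79 per Mb. The part of either property in the density was otherwise not tested.

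**Figure D3:**
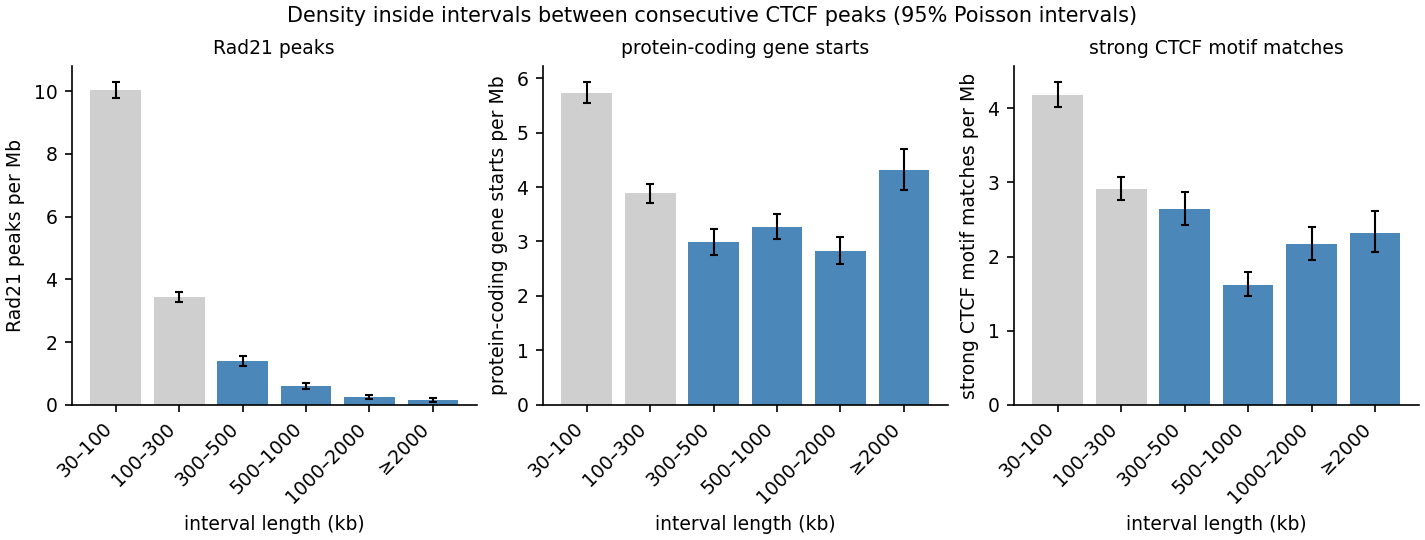
Bars give the number per Mb of Rad21 peaks, protein-coding gene starts and strong CTCF motif matches inside intervals between consecutive CTCF peaks by interval length (kb), with 95% Poisson intervals, in grey for the shorter intervals and in blue for stretches of at least 300 kb. Rad21 density falls at each step from 10.03 to 0.139 per Mb, whereas gene starts and motif matches show no steady fall among the stretches.

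Rad21 peaks lay closer to the ends of the stretches than to their middle. Within 10 kb of a border the density was 2.77 per Mb (2.12 to 3.57), from 10 to 25 kb it was 1.23, from 25 to 50 kb 1.26, from 50 to 100 kb 1.01, from 100 to 150 kb 0.702 (0.553 to 0.879) and beyond 150 kb 0.326 (0.274 to 0.385). At equal distance from a CTCF peak the stretches had lower densities than intervals of 100 to 300 kb, where the first 10 kb held 5.66 per Mb and the zone from 100 to 150 kb held 1.94 (1.47 to 2.51). Only the longer of these intervals reach that zone, and longer stretches add more to the zone beyond 150 kb. Distance from the border and interval length were therefore not separated in these zones. The central 50% of the length of the stretches held 184 of the 494 peaks (37.2%).

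**Figure D4:**
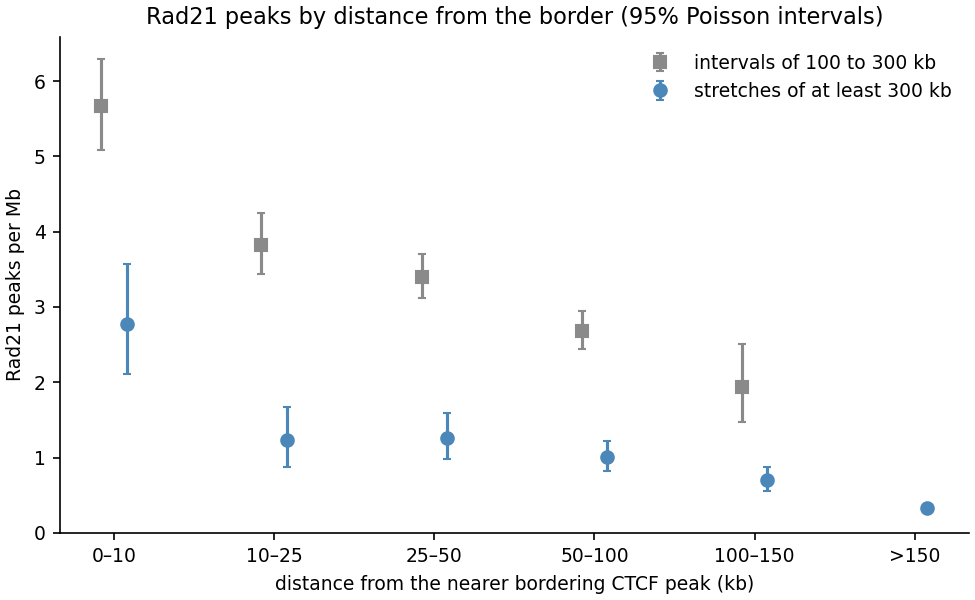
Points give Rad21 peaks per Mb by distance from the nearer bordering CTCF peak (kb), with 95% Poisson intervals, for stretches of at least 300 kb (blue circles) and for intervals of 100 to 300 kb (grey squares). The squares fall at each step, the circles fall from 2.77 to 0.326 with level values between 10 and 50 kb (1.23 and 1.26), and the circles lie below the squares in every zone that both reach, for example 0.702 against 1.94 between 100 and 150 kb.

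The Rad21 peaks inside stretches were close to those inside shorter intervals in fold enrichment and in their share at promoters, and more of them had a CTCF motif. Their median fold enrichment at the summit over local background was 4.15 (interquartile range 3.48 to 4.81), against 3.98 and 3.65 in the 100 to 300 kb and 30 to 100 kb classes, and 27.9% of them, against 29.5% and 25.8%, had a −log10 q of at least 10. The summit lay within 1 kb of a protein-coding TSS at 26 of the 494 (5.26%, 3.62 to 7.60%), next to 6.32% and 6.03% in the shorter classes. The order of stretches and intervals of 100 to 300 kb turned with only Rad21 peaks of −log10 q at least 10 (5.07% against 4.92%) or of fold enrichment at least 5 (4.21% against 2.73%). A protein-coding gene body contained 134 of the 494 (27.1%). A CTCF motif, that is a match within 100 bp of the summit with 12.7 bits or more (reached by 1% of background windows), was present at 43 of them (8.70%, 6.53 to 11.5%). The corresponding shares were 4.93% (4.0 to 6.06%) in intervals of 100 to 300 kb and 2.87% (2.48 to 3.33%) in those of 30 to 100 kb.

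The strongest of these Rad21 peaks was an isolated one. It lay at chr11:25000002-25000353 in intergenic sequence, with a fold enrichment of 22.4 and a −log10 q of 135, above 97.8% of autosomal Rad21 peaks. It was the only Rad21 peak in its stretch of 611 kb, 201 kb from the nearer border and 1022 kb from the nearest protein-coding TSS, that of Bcl11a, and the best motif match near its summit scored −2.24 bits. The next in order of fold enrichment were 12.3 at chr6:132413624-132413969, 11.3 at chr3:21715797-21716330, 10.1 on chromosome 18 near Kcnn2 and 9.33 at chr16:47171858-47172504. All 10 of the highest were intergenic, and only the last of them, at chr10:22299384-22299602 with a fold enrichment of 8.13, carried a motif. This peak and another in the same stretch, at chr10:22199651-22199910 with a fold enrichment of 7.46, are the pair shown above with the same 20-base match, and 42.0% of the words of that stretch were unique.

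Rad21 peaks were unevenly shared out, and 5 stretches contained 49 of them (9.92%). The most, 17, lay in a stretch of 565 kb at chr3:21266512-21831111 between Agtr1b, an angiotensin receptor gene, and Tbl1xr1, a corepressor gene. No gene of any type started in it, 85.2% of its words were unique, and its GC content was 41.0%. Their fold enrichments ranged from 2.96 to 11.3, and the highest values, 7.20, 11.3 and 7.42, lay 395, 450 and 468 kb from its left end. Its bordering CTCF peaks were weak, with fold enrichments of 3.16 and 3.32, and neither carried a motif. The left border was Lone CTCF, and the right border overlapped a Rad21 peak with a fold enrichment of 2.33.

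The stretch with the second largest number, 13, contained the Cyp3a genes at chr5:146127623-146778619. These genes encode cytochrome P450 enzymes that oxidise steroids and many drugs. Cyp3a16, Cyp3a41b, Cyp3a41a, Cyp3a44 and Cyp3a11 started inside it. The peaks had fold enrichments from 2.90 to 5.17, and 8 of them lay from 564 to 603 kb from the left end, at the start of Cyp3a11 and upstream of it. The peak at the start of Cyp3a11, at chr5:146691074-146691540, had a fold enrichment of 3.76 and its summit 103 bp from the TSS. Another 3 peaks lay from 55.8 to 67.1 kb, between Cyp3a57 and Cyp3a16, 1 lay in an intron of Cyp3a16 and 1 at 266 kb, between Cyp3a41b and Cyp3a41a. The borders differed in strength, with CTCF fold enrichments of 6.05 at the left, in an intron of Cyp3a57, and 24.5 at the right, both CAC and both with a motif on the minus strand. In this stretch 47.1% of the words were unique. The stretches that followed, with 7, 6 and 6 Rad21 peaks, were at chr4:54600602-54936297 near Zfp462, at chr4:6918781-7780455 between Tox and Car8, and at chr13:104124706-104434538 between Mast4 and Srek1.

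**Figure D5:**
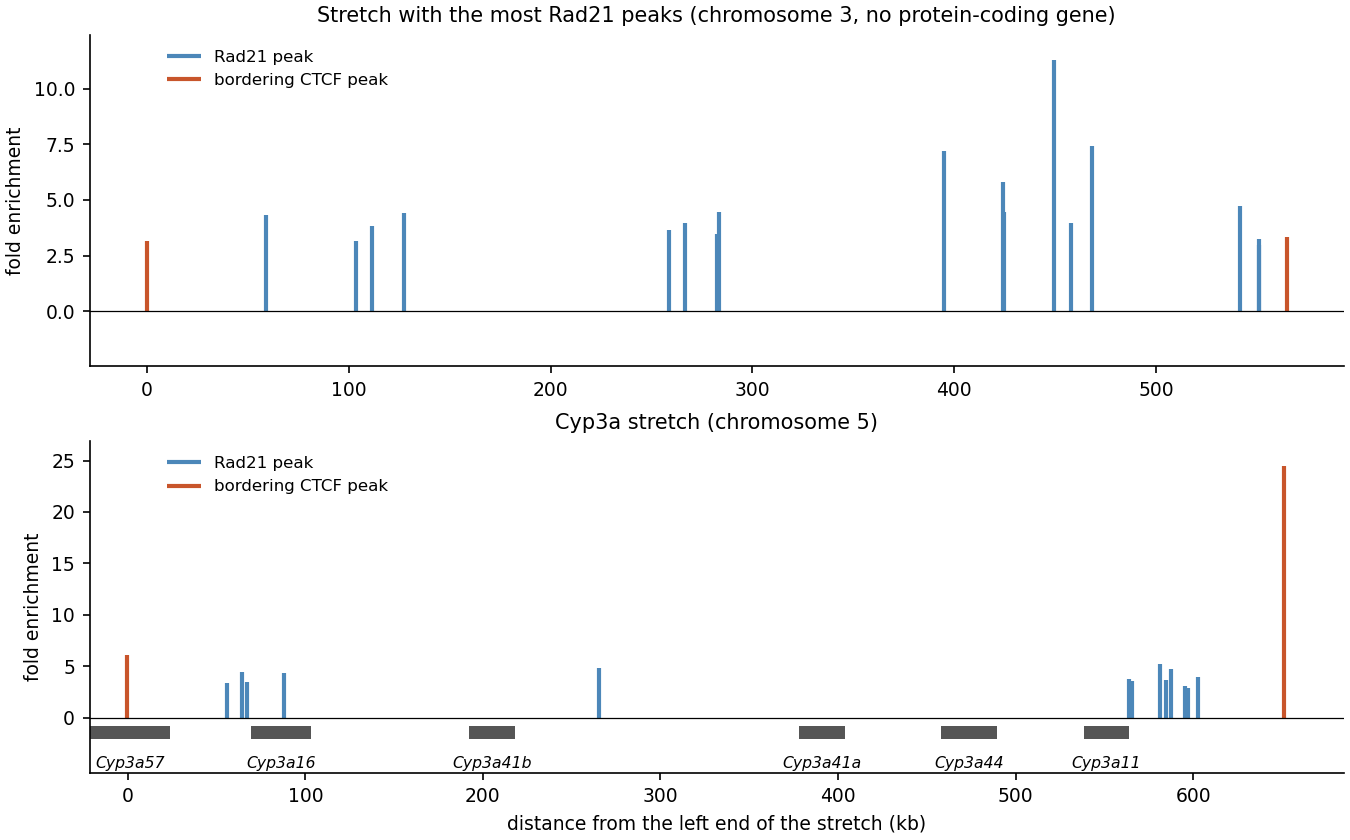
Vertical lines give the fold enrichment of Rad21 peaks (blue) and of the bordering CTCF peaks (orange) by distance from the left end of the stretch (kb), for the stretch with 17 Rad21 peaks and for the Cyp3a stretch with 13, with protein-coding genes as grey bars. In the Cyp3a stretch 8 of the 13 lines stand at the right, from 564 to 603 kb, at and beyond Cyp3a11, and the right border reaches 24.5.

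Few genes that started in a stretch had cohesin at the promoter. A Rad21 summit lay within 1 kb of the TSS of 36 of the 2464 genes (1.46%, 1.06 to 2.02%), counting also Rad21 peaks at the borders. The share was 7.81% of 1946 genes that started in intervals of 100 to 300 kb, 16% of 3422 in those of 30 to 100 kb, and 49.1% of all autosomal protein-coding genes. At 20 genes the Rad21 peak lay inside the stretch. The highest fold enrichments there were at the starts of 1700025G04Rik (6.09), of Gbp6, an interferon-inducible GTPase gene (5.47), and of Unc80, which encodes a component of a sodium leak channel (5.47). Lower values were found at Spnb2, a spectrin gene (5.15), at Slc22a26, an organic anion transporter gene (4.98), and at Clec14a, an endothelial C-type lectin gene (4.84). Those of 5430403G16Rik, Ceacam20, Zfp120 and Cxxc4 ranged from 4.22 to 4.81. Ceacam20 was the first gene at the left end of the longest stretch, with its Rad21 summit 90 bp from the TSS. The complement gene C6 (3.65), the caspase gene Casp1 (3.48) and the endothelin receptor gene Ednrb (3.32) were among the rest.

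The stretches were bounded by 1927 different CTCF peaks, of which 1376 were CAC (71.4%, 95% Wilson interval 69.3 to 73.4%), against 73.8% of all autosomal CTCF peaks. A motif was present at 1236 of the border peaks (64.1%, 62 to 66.3%), against 44.4% of all autosomal CTCF peaks, and 118 (6.12%, 5.14 to 7.28%) had a summit within 1 kb of a protein-coding TSS, against 17.7%. The median CTCF fold enrichment of border peaks was 8.25 (interquartile range 4.67 to 15.7), whereas that of all autosomal CTCF peaks was 6.03 (3.74 to 12.96). The borders of intervals of 100 to 300 kb had a median fold enrichment of 8.38, and 75.5% of them were CAC (74.3 to 76.6%) and 57.1% had a motif (55.8 to 58.4%). At CAC borders the overlapping Rad21 peak had a median fold enrichment of 8.29, against 6.21 at all autosomal CAC sites.

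Since CAC and motif shares increase with CTCF strength, border peaks were also set beside all CTCF peaks in 4 equal groups by CTCF fold enrichment. From the weakest to the strongest group, border peaks were CAC in 35.0%, 48.3%, 76.7% and 97.7%, and all peaks in 49.7%, 61.6%, 85.2% and 98.8%. A motif was present at 29.7%, 53.2%, 66.8% and 83.0% of border peaks and at 15.8%, 31.6%, 52.6% and 77.4% of all peaks in the same order. In each of the 4 groups the CAC share of the border peaks was the lower value and their motif share the higher, and the gap in the CAC share was smallest in the strongest group. Both ends were CAC at 552 stretches (51%), 1 end at 417, and neither at 113 (10.4%).

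The motifs at the borders pointed inwards at more stretches than outwards. Both borders had a motif at 466 stretches, and 157 of these pairs were convergent (33.7%, 29.5 to 38.1%), 236 were in tandem (50.6%) and 73 were divergent (15.7%, 12.6 to 19.2%). The convergent share was 30.5% of 1076 pairs around intervals of 100 to 300 kb (27.8 to 33.3%), an interval that overlaps that of the stretches, and 24.0% of 2981 pairs around intervals of 30 to 100 kb (22.5 to 25.5%). Among single borders with a motif, 835 of 1400 pointed into the stretch (59.6%, 57.0 to 62.2%), compared with 56.8% and 53.1% in the shorter classes. In the stretches with fewer than 50% unique words, by contrast, 3 pairs were convergent and 4 divergent, and 30 of 66 borders with a motif pointed inwards (45.5%, 34.0 to 57.4%). A border peak between 2 stretches was counted for each of them here.

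The strongest pair of borders, ranked by the weaker of both peaks, enclosed a stretch of 363 kb at chr16:87841613-88204623, of which 84.9% lay in Grik1, a kainate receptor subunit gene. The fold enrichments were 24.6 and 25.4. The Gpc5 stretch, wholly within this glypican gene, came next with 24.4 and 23.6, and its borders carried the tandem motifs shown above. The third, at chr16:53266636-54983968 between Alcam and Zpld1, spanned 1717 kb with borders of 23.4 and 27.8. The others lay at Slc7a11, a cystine transporter gene (22.7 and 26.6), and between Nav3 and E2f7 (21.8 and 21.9). All 10 of these peaks were CAC, next to 97.7% of the border peaks in the strongest of the 4 groups by CTCF fold enrichment. No Rad21 peak was listed inside 4 of the 5 stretches, next to 74.4% of all stretches. The weakest border peaks of all were Lone CTCF, had no motif and had fold enrichments of 1.99 (intron of Epha4), 2.47 (intergenic, near Slc39a8) and 2.47 (intron of Slc22a26).

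Among the 10 longest stretches, 6 held no Rad21 peak, next to 74.4% of all stretches. Of their 20 border peaks 7 were Lone CTCF, where 71.4% of all border peaks were CAC. The borders of the Cntnap5a stretch, for example, had fold enrichments of 3.99 and 6.32 and were both Lone CTCF in spite of convergent motifs. Both borders of the 3246 kb stretch at chr10:45955694-49201287, which ends in an intron of the kainate receptor gene Grik2, were likewise Lone CTCF (3.57 and 5.22). The left border of the longest stretch, at chr7:20541756-20542224, was instead a strong CAC site, where CTCF reached a fold enrichment of 27.1 and Rad21 a value of 23.5, whereas its right border, in an exon of Zfp112, had 5.21 and 3.69 and no motif. The borders of the stretch on chromosome 14 without a protein-coding gene were both CAC, with CTCF fold enrichments of 16.9 and 15.1.

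Strong CTCF motifs were present inside the stretches without a CTCF peak. A strong match was one that scored at least 16.4 bits, the median best score at the strongest 10% of CTCF peaks. The stretches held 1621 such matches, or 2.14 per Mb (95% Poisson interval 2.04 to 2.25), against 2.92 per Mb in intervals of 100 to 300 kb and 4.18 in those of 30 to 100 kb, and 437 stretches (40.4%) held none. These values rest on the threshold. With the lower quartile of the same scores in place of the median, the density was 14.2 per Mb in the stretches and 20.9 in intervals of 100 to 300 kb. Of all 24391 strong autosomal matches, 65.2% lay in a CTCF peak and 6.65% in a stretch. Only 36% of the matches in stretches were of a 20-base sequence found once among the strong autosomal matches, compared with 67.3% of those in CTCF peaks and 29.6% of those outside both. A CpG dinucleotide was present in 22.6% of the matches in stretches (20.7 to 24.7%), in 39.8% of those in CTCF peaks and in 23% of those outside both. The stretches are poor in GC, and the part of base composition in these shares was not tested.

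The density of these matches was highest in the most repeated stretches and in those richest in GC. Stretches with fewer than 50% unique words held 7.85 strong matches per Mb, those with 50 to 80% held 1.56 and those with at least 80% held 1.71, so it did not rise steadily with repetition. In the stretches with the lowest, intermediate and highest GC content, grouped as above, the density was 1.06, 1.88 and 4.45 per Mb. The part of either property was not tested. The stretch of 3615 kb at chr12:21531771-25147033, with 9.55% unique words, held the most among the 10 longest, 70 matches of 18 different sequences, the most frequent of which occurred 12 times. The 5 best matches inside any stretch scored 23.3 bits and were all of 1 sequence, shown above near Vmn1r181, which occurred 20 times among the strong autosomal matches. These 5 copies lay on chromosomes 17, 3, 4 and 7, from 14.2 to 546 kb from the nearest border and from 39.3 to 546 kb from the nearest Rad21 peak, all in intergenic sequence.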

How the data were processed

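The data were peak lists of CTCF (4 libraries) and Rad21 (3 libraries) ChIP-seq of female mouse liver. The authors aligned the reads to mm9 (Bowtie2), retained unique alignments and ran MACS2 on the pooled libraries per antibody. Blacklisted peaks and those built from identical reads were discarded. For every peak the deposited lists give the summit, its fold enrichment over local background (a ratio), a −log10 q and a score derived from q, all used here as deposited. Fold enrichments of the 2 factors were never compared. Depth per region is not given in the lists. No per-library column was left unused (0).

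From the lists, intervals between consecutive autosomal CTCF peaks were taken and read against the mm9 sequence and the GENCODE annotation of that build, with 1 TSS per gene. A Rad21 peak counted as inside when it lay wholly within an interval, and CAC required an overlap of at least 1 bp. The motif matrix (20 bp) was learned from the 1000 strongest CTCF peaks on odd-numbered autosomes and called within 100 bp of the summit. Strong matches score at or above the median of the top 10% of peaks on even-numbered autosomes. Counts per Mb carry exact Poisson intervals and shares carry Wilson intervals at the 95% level, which cover counting error only. No test was run, since peaks were called on pools and regions are not replicates. Scripts used python 3.11.15, numpy 2.4.6, pandas 2.3.3, scipy 1.17.1, numba 0.67.0 and matplotlib 3.10.9, and were tested on simulated data.

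The stretches, gene lists and alternatives were chosen with earlier results of these data known. Named items follow a rule set with them: the 10 longest stretches, the 5 with most Rad21 peaks and with most TSS, the 3 on either side of the length limit, the 10 strongest Rad21 peaks inside and at TSS, the 5 longest gene overlaps, the 5 strongest border pairs, the 3 weakest border peaks, the 5 best motif matches inside stretches, and 2 to 4 members per gene list. Some items that this rule names are not reported here. Genes ranked below 10 at a TSS, list members beyond these, chromosome extremes and runs of stretches were named after their values were seen. The Tas2r and Mrgpr genes were separated from their list at the same stage. Alternatives were a minimum −log10 q of 10 for either list, a Rad21 fold enrichment of at least 5, a length of at least 500 kb, no limit on N, summits within 100 bp, other motif thresholds, other gene sets and TSS distances, and stretches with at least 80% unique words. The last was added for 4 results after seeing the data.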

Additional observations from a re-analysis of the deposited data

How the results depend on the processing

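No paired analysis was possible because the lists were called on pooled libraries and hold no column of a single library, and for the same reason no replicate could be left out. Of 52 alternative values, 23 stayed within the counting interval of the reported value (for the number of stretches, within 1.5 times) and 29 moved. Of 48 that could be set beside intervals of 100 to 300 kb, 46 kept the order of the 2 classes. The exceptions were the shares of Rad21 peaks within 1 kb of a TSS, which became 5.07% against 4.92% with Rad21 −log10 q of at least 10 and 4.21% against 2.73% with Rad21 fold enrichment of at least 5.

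Ending stretches only at CTCF peaks with −log10 q of at least 10 gave 1.44 Rad21 peaks per Mb, partly at CTCF peaks that were then ignored, a Rad21 peak in 41.5% of stretches, CAC borders in 81.6%, 2.29 strong motifs per Mb, a median GC of 39.0% and 77.7% unique words. A minimum of 500 kb gave 540 stretches, 0.371 Rad21 peaks per Mb, a Rad21 peak in 21.9%, CAC borders in 67.9%, 1.95 strong motifs per Mb, a median GC of 38.0% and 75.6% unique words. Without a limit on N, 76.6% of words were unique. Rad21 peaks with −log10 q of at least 10 gave 0.182 per Mb, 9.61% of stretches and CAC borders in 59.5%, and those with fold enrichment of at least 5 gave 0.125 per Mb, 7.12% and 55.0%. Summits within 100 bp made 66.8% of borders CAC. Strong matches from the lower quartile gave 14.2 per Mb, all annotated genes 7.34 TSS per Mb, and a TSS within 5 kb 9.11% of Rad21 peaks. The 668 stretches with at least 80% unique words had 0.798 Rad21 peaks per Mb, a Rad21 peak in 28.9%, 1.71 strong motifs per Mb and 0.873 TSS per Mb, and intervals of 100 to 300 kb of that uniqueness had 2.72 TSS per Mb. The causes of these shifts were not tested.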
